A study of Mus musculus with 16 samples.

Results

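A set of 10 genes of prohormone processing and of the secretory granule was examined for accessible chromatin in mouse pancreatic islets: Pcsk1, Pcsk2, Scg5, Cpe, Chga, Chgb, Scg2, Scg3, Slc30a8 and Ptprn. Overlapping or touching ATAC-seq peaks of the 16 samples were merged on chromosomes 1 to 19 into 347712 regions, and a region was assigned to a gene where it overlapped the gene body or the 3 kb before it in the mm10 annotation. This gave 267 regions for the 10 genes, of which 43 held a peak in all 16 samples, against 40940 such shared regions in the genome. The islets came from the 8 inbred founder strains of the Diversity Outbred mouse, labelled 129S1_SvImJ, A_J, C57BL/6J, CAST_EiJ, NOD_ShiLtJ, NZO_HlLtJ, PWK_PhJ and WSB_EiJ and called 129, AJ, B6, CAST, NOD, NZO, PWK and WSB here, with 1 female and 1 male sample per strain and 50 islets per sample. No treatment or engineered allele is named for any sample, and age and diet are not given in the sources used here. The study counts 129, AJ, B6, NOD and NZO as classical inbred strains and CAST, PWK and WSB as wild-derived. ATAC-seq uses a transposase to cut open chromatin, so the signal at a peak reflects how often that stretch of DNA was open in the nuclei of the sample.

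Peptide hormones such as insulin and glucagon are made as longer precursors, which enter dense granules and are cut there by the prohormone convertases encoded by Pcsk1 and Pcsk2. The carboxypeptidase encoded by Cpe then trims the basic residues left at the cut ends. Granins, the acidic proteins encoded by the Chg and Scg genes, aggregate with the cargo, the zinc transporter encoded by Slc30a8 loads zinc for insulin crystals, and Ptprn encodes a protein of the granule membrane that is a known autoantigen in type 1 diabetes.

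The signal of a region in a sample was the highest peak summit that the sample's list gave there, divided by the sample's median over the 40940 shared regions, so that 1 is the level of a typical shared region. That median was between 32 (PWK male) and 136 (CAST male) in the units deposited, and between 77887 and 167051 autosomal peaks were listed per sample. Promoters of 10 of 11 islet endocrine marker genes lay in a region, and their summed scaled signal was between 20.1 and 27.6. The Sst promoter region was listed in only 1 sample, at 0.0968, and the other 9 in all 16. Of 8 acinar marker genes, 2 had a promoter region, with summed signals from 0 to 0.818. The counts were 2 of 5 for endothelial genes (0 to 0.493), 3 of 6 for leukocyte genes (0 to 2.25) and 5 of 5 for duct genes (0.446 to 3.02). Of these promoter regions, 1 duct region and 0 of the acinar, endothelial and leukocyte ones were listed in all 16 samples. The NZO male had the lowest islet sum (20.1, next to the B6 male at 20.5) and the highest acinar, duct and leukocyte sums (0.818, 3.02 and 2.25). The next highest duct sum was 1.27, in the AJ male. The endothelial sum of the NZO male was 0, as was that of the PWK male. In bulk islets, fewer cells of a type and less open chromatin per cell cannot be told apart.

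The longest genes held the most regions. Pcsk2, which spans 270130 bases, had 126 regions, of which 10 were shared by all samples. Cpe had 46 regions and 13 shared ones over 100513 bases. Scg5 had 21 and 3, Pcsk1 had 18 and 1, Scg3 had 17 and 5, Slc30a8 had 17 and 3, Chgb had 13 and 1, and Chga and Ptprn had 3 each, all shared, while Scg2 had 3 with 1 shared. Single-sample regions made up 87 of the 267 (32.6%) against 46.4% of all regions, and shared regions made up 16.1% against 11.8%. Between 48 (AJ male) and 169 (CAST female) regions of these genes were listed per sample, with a median of 100.5. The median summit of 239 of the 267 regions, and of 30 of the 43 shared ones, lay in an intron. In the lists of peaks reproduced between the sexes at an irreproducible discovery rate of 0.05, 27 regions were present in all 8 strains.

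Of the 43 shared regions, 27 had a median signal above that of all 40940 shared regions (0.976) and 16 one below it. The median over the 43 was 1.41, and the 10 promoter regions had a median of 2.35. Member regions were also wider, with a median of 2995 bases (6853 for the promoters) against 1144.5 bases for all shared regions, and a region's signal is its highest summit; the part of the width in the levels was not tested. The ratio of the highest to the lowest strain mean had a median of 2.20 over the 43 regions and 2.18 over all shared regions. For the 10 promoters the median ratio was 1.84, and for the 33 other regions 2.27.

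To find regions in which the strains differed, a limma model of strain and sex was fitted to the centred log2(signal + 1) of all 40940 shared regions, with Benjamini-Hochberg adjustment over all of them and a threshold of 0.05. The 224 member regions that lacked a peak in at least 1 sample were not tested. The strain effect passed in 17 of the 43 regions, and it passed in 35.7% of all shared regions. These 17 were 3 of the 10 promoters (Pcsk1, Slc30a8 and Ptprn) and 14 of the 33 other regions. The share called among all promoters of the genome was not computed. With 2 samples per strain that differ in sex, the p-values measure the spread between these samples, and the sources used here give neither the number of animals behind a sample nor a batch. Only 6 of the 17 kept an adjusted p under 0.05 whichever single sample was left out: the Pcsk1 promoter, Pcsk2 regions 108.9 and 120.8 kb into the gene, Cpe regions 77.4 and 81.5 kb into the gene, and the region at the end of Chga.

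Each strain was then compared with the mean of the other 7, which gave 25 calls in 17 regions. CAST differed in 9 regions, 5 higher and 4 lower, against 20.6% of all shared regions. PWK differed in 6, with 3 higher and 3 lower (11.1% of all), and NZO in 3, all lower (5.19% of all). AJ was lower in 2 (6.81% of all), NOD was higher in 1 and lower in 1 (3.02% of all), WSB was higher in 1 and lower in 1 (5.81% of all), and 129 was higher in 1 (3.09% of all). B6 differed in 0 regions by limma, with 11 at an unadjusted p under 0.05, where 3.13% of all shared regions were called. The shares among the 43 regions were thus near those of the genome. Of the 25 calls, 23 were lost without 1 or both samples of the strain concerned, and the other 2 were the CAST and PWK calls at the Cpe region 81.5 kb into the gene. Such fits leave the strain with 1 sample, which is assumed to vary like the others. In the 40 fits in which a call was lost this way the difference kept its direction, at 56.7% to 135% of its size with both samples (median 96.8%).

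Sex was called in 0 of the 43 regions (limma, 3 at an unadjusted p under 0.05) and in 0.0% of all shared regions, of which 1621 had an unadjusted p under 0.05. The smallest sex p was that of the Pcsk2 region 108.9 kb into the gene, where females had 0.847 ± 0.215 and males 0.638 ± 0.187 (SD, n = 8 each), the female being higher in 8 of 8 strains (limma adjusted p = 0.999). The Pcsk1 promoter was higher in the female of 8 of 8 strains and the Ptprn promoter in 7 of 8, with the same adjusted p. Wild-derived against classical strains, tested on the 8 strain means, gave 0 calls in the 43 regions (limma, 4 at an unadjusted p under 0.05) and 0.0342% of all shared regions.

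**Figure D1:**
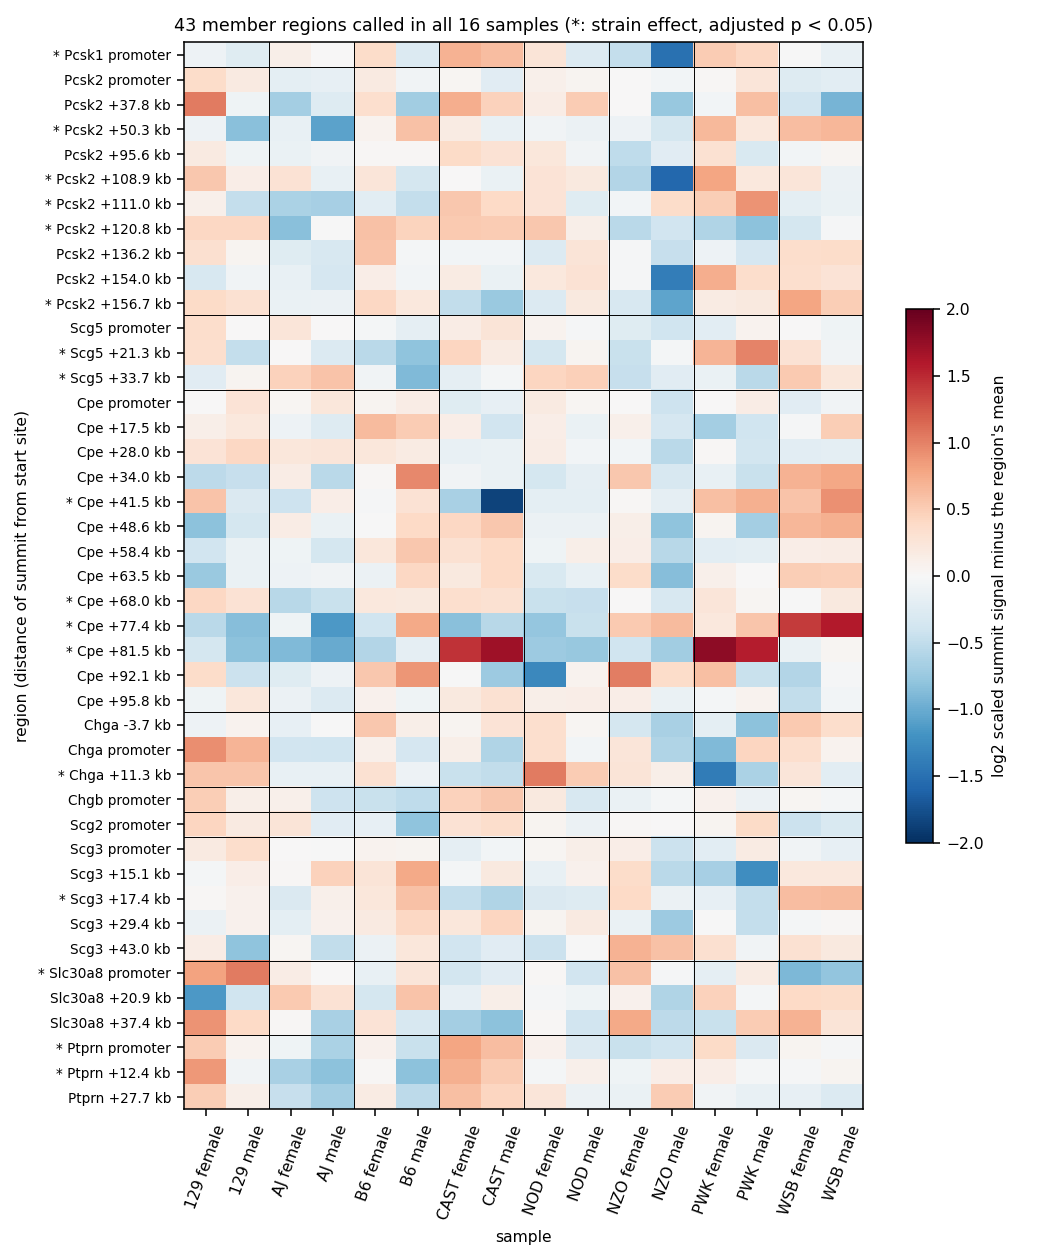
Each row is 1 of the 43 shared regions, named by gene and by the distance of its summit from the start site in kb, and each column is 1 sample; colour gives the log2 scaled signal minus the row's mean, and stars mark the 17 regions with a strain effect (adjusted p under 0.05). The Cpe rows at 77.4 and 81.5 kb hold the deepest reds, in the WSB pair and in the CAST and PWK pairs, and the NZO male column is blue at the Pcsk1 promoter and at 108.9, 154.0 and 156.7 kb in Pcsk2.

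Pcsk1 encodes prohormone convertase 1/3, which makes the first cuts in proinsulin. Its only shared region, chr13:75088504-75092728, lay over the start site of the gene (chr13:75089826, plus strand), with the median summit in the untranslated first exon. The CAST female and male had scaled signals of 4.29 and 4.07, and the PWK female and male had 3.79 and 3.53. The NZO female and male had 1.90 and 0.945, and the other 10 samples lay between 2.21 and 3.43. Thus the CAST pair lay above the other 14 samples, whose median was 2.56 and highest value 3.79, and the NZO pair lay below the others, whose lowest value was 2.21. The strain effect passed (limma adjusted p = 0.0119). CAST was higher than the mean of the other strains by 0.75 ± 0.20 on the log2 scale (SE, adjusted p = 0.0190) and NZO fell by 1.12 ± 0.20 (SE, adjusted p = 0.0122). The NZO difference had an adjusted p of 0.228 without the NZO male, which had the lowest islet marker sum, 0.0683 with the deposited mean signal and 0.103 without centring, and the part of that male's marker sums in the result was not tested. The CAST call had adjusted p-values of 0.113 and 0.298 without its female and its male, and the strain effect had 0.0549 when the deposited mean signal replaced the summit signal.

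The 250 bases around the Pcsk1 start site are shown because this promoter had the widest range between strain means of the convertase and chaperone promoters, and capitals mark matches to the cyclic AMP response element, TGACGTCA, and to the FoxA-type motif TGTTTAC, here on the opposite strand as GTAAACA (GRCm38, chr13:75089607-75089856, plus strand, C57BL/6J reference).
Pcsk1 promoter: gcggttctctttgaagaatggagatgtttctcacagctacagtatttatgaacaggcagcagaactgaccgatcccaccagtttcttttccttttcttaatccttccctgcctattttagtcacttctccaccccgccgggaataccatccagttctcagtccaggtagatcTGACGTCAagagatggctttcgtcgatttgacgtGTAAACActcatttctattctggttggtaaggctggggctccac
The response element begins 47 bases before the start site given above and 78 bases before the RefSeq start (chr13:75089857). Reads of all strains were aligned to this reference, and the alleles of the other 7 strains were not read here.

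The same 8 letters also stood near the start sites of the granin genes Scg2 and Chgb, 68 and 72 bases before their RefSeq starts. Counted from the GENCODE starts that the promoter regions use, they lay 26 and 292 bases inside the genes. The 30 bases around the elements are set side by side below, each on the strand of its gene with the element in capitals.
Pcsk1: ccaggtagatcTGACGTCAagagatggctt
Scg2: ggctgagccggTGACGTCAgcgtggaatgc
Chgb: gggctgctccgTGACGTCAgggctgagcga
Their positions are chr13:75089768-75089797, chr1:79440076-79440105 on the minus strand, and chr2:132781559-132781588. Promoter sequences of RefSeq (GRCm38), 250 bases before to 50 after a start, were matched for 8 of the 10 genes in 9 windows; Cpe and Slc30a8 were not matched. The element was in 3 of the 9 windows, and in 588 of 32851 promoters of the table (1.79%), with both strands searched. CAST had the highest strain mean at the promoter regions of all 3 genes that held it, and also at those of Scg5 and Ptprn, whose windows did not. At Scg2 the CAST mean was 1.715 and the 129 mean 1.698, and CAST was not called (limma adjusted p = 0.201). The Scg5 value is that of the whole region, whose highest summit lay inside the first intron in 10 samples. The summit window of the Scg3 region chr9:75637120-75647690 held the element too, and CAST had the lowest strain mean there. At Scg2 and Chgb 129 came next and B6 was lowest, with a correlation of 0.72 between them over the 16 samples, and at Pcsk1 NZO was lowest. Of the other motifs, GGGCGG was in 6 of the 9 windows (35.7% of all promoters), TGTTTAC in 1 (3.65%), TATAAA in 1 (13.6%), CAGATG in 0 (17.2%) and TAATTA in 0 (5.29%).

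Pcsk2 encodes prohormone convertase 2, which completes the processing of proinsulin and cuts proglucagon in alpha cells. Its promoter region, chr2:143543937-143552799, had signals from 2.39 (WSB female) through a median of 2.9 to 3.67 (129 female). The strain ranges ran into each other, and the strain effect had a limma adjusted p of 0.464, against 0.0148 with the deposited mean signal. The ratio of highest to lowest strain mean was 1.42, smaller than in all but 3.36% of shared regions. The region 95.6 kb into the gene, the strongest Pcsk2 region away from the promoter, likewise ranged only from 1.99 to 3.66 (limma adjusted p = 0.416).

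Intronic parts of Pcsk2 held 5 regions with a strain effect, all with median signals under 1. At chr2:143654611-143655405, 108.9 kb into the gene, the NZO female and male had 0.469 and 0.236, and the other 14 samples ran from 0.554 through a median of 0.809 to 1.21. Both NZO samples lay below all others, and the mean of the others was 2.26 times theirs. The strain effect had a limma adjusted p of 0.00950, and NZO fell by 1.19 ± 0.19 on the log2 scale (SE, adjusted p = 0.00650). Without the NZO male, the sample with the duct marker sum of 3.02, the NZO difference had an adjusted p of 0.126, and the part of that sum in the result was not tested.

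At chr2:143666346-143667429, 120.8 kb into the gene, the PWK female and male had 0.435 and 0.375, while both samples of 129, B6, CAST and NOD had between 0.720 and 0.988. AJ, NZO and WSB were between 0.369 and 0.655, so the PWK pair did not stand alone at the low end. The strain effect had a limma adjusted p of 0.0146 and stayed under 0.05 in all 32 alternative settings that could be fitted to this region. PWK fell by 0.77 ± 0.21 on the log2 scale (SE, adjusted p = 0.0318), with adjusted p-values of 0.103 without its female and 0.256 without its male.

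Farther into the gene, 156.7 kb from its start, at chr2:143701200-143703116, the CAST pair had 0.349 and 0.294 and the NZO pair 0.395 and 0.236. The other 12 samples ran from 0.407 through a median of 0.564 to 0.849 and did not overlap with these 4 (limma strain adjusted p = 0.0159). CAST fell by 0.70 ± 0.20 on the log2 scale (SE, adjusted p = 0.0247) and NZO by 0.75 ± 0.20 (SE, adjusted p = 0.0485, lost without any 1 of 15 samples, the NZO male among them), and the CAST difference was 0.08 with an adjusted p of 0.825 when samples were not centred. Of the 2 remaining regions, the one 111.0 kb into the gene was higher in PWK, at 0.968 and 1.28 against 0.436 to 1.00 (adjusted p = 0.0310), and the PWK difference also turned without centring, to -0.05. The last, 50.3 kb into the gene, passed for strain (limma adjusted p = 0.0440) with no single strain called.

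Scg5 encodes 7B2, the chaperone that keeps the PCSK2 precursor inactive until it reaches the granule. Its promoter region, chr2:113816997-113829714, was 12718 bases wide, and in 10 of 16 samples the highest summit lay more than 7 kb inside the first intron and not at the start. The region's signal ranged from 3.78 (NZO male) through a median of 5.01 to 6.38 (129 female), and the strain effect had a limma adjusted p of 0.434. A peak with its summit within 1 kb of the start site was listed in 14 samples, with signals from 3.36 through 4.56 to 6.38. Farther in, at chr2:113803570-113808109, PWK had 0.806 and 1.00 against 0.289 to 0.679 in the others, which did not overlap (strain adjusted p = 0.0418, PWK higher by 0.94 ± 0.23 on the log2 scale, SE, limma adjusted p = 0.0176). The PWK difference had an adjusted p of 0.231 without the PWK male, 0.439 with the deposited mean signal and 0.712 without centring, and the strain effect passed in 12 of the 32 alternative settings. The third region, chr2:113794847-113796598, had its highest strain means in AJ (2.07 ± 0.10), NOD (1.98 ± 0.06) and WSB (1.89 ± 0.28) and its lowest in B6 (1.08 ± 0.42; SD, n = 2 each), with a strain adjusted p of 0.0484 by limma and no single strain called.

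Cpe, which encodes carboxypeptidase E, held the signals with the greatest strain differences among the 43 regions as well as the strongest ones. Its promoter region, chr8:64677955-64694799, ranged only from 4.31 (NZO male) through a median of 5.83 to 6.90 (129 male). The ratio of highest to lowest strain mean was 1.27, smaller than in all but 0.41% of shared regions, and the strain effect had a limma adjusted p of 0.608. The strongest region of the 10 genes lay in the first part of the gene, 28.0 kb from the start (chr8:64661000-64668279), at 7.07 (NZO male) to 13.6 (129 male) with a median of 10.2, above 99.1% of shared regions. There too the strain effect did not pass (limma adjusted p = 0.186).

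The smallest strain p of the 43 regions was in the Cpe intron 81.5 kb from the start, at chr8:64610675-64612973. The CAST female and male had 2.09 and 2.47 and the PWK female and male 2.66 and 2.28. The other 12 samples ran from 0.382 (AJ male) through a median of 0.492 to 0.784 (WSB male). The 4 CAST and PWK samples were therefore well apart from the rest, with a mean of 2.38 ± 0.24 (SD, n = 4) against 0.539 ± 0.128 (SD, n = 12), a ratio of 4.41. The strain effect had a limma adjusted p of 4.21e-05. CAST was higher by 1.77 ± 0.19 on the log2 scale (SE, adjusted p = 4.08e-05) and PWK by 1.89 ± 0.19 (SE, adjusted p = 5.00e-05), and the strain effect stayed under 0.05 in all 32 alternatives that could be fitted to it. AJ and NOD were called lower than the mean of the other strains (adjusted p = 0.0113 and 0.0343), a mean that includes CAST and PWK, and the calls were lost without a sample of their own strain.

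The third wild-derived strain did not share this level: the WSB pair had 0.698 and 0.784, next to the B6 male at 0.675. The difference between wild-derived and classical strains in this region was 1.68 ± 0.35 on the log2 scale (SE) with a limma adjusted p of 0.136, against 0.0332 without centring and 0.00392 without WSB. Most samples listed a pair of peaks inside the region, with summits 945.5 bases apart. The summit farther from the start site of Cpe was listed in 15 samples and was the higher one in 9, and the nearer summit was listed in 12 and was the higher one in 7. Each CAST and PWK sample listed a single peak of 1341 to 2041 bases with its summit at the farther position, while no peak of the other 12 samples was wider than 784 bases. A separate nearer summit was thus not listed in the 4 samples with the high signal.

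The region 77.4 kb from the start, chr8:64615301-64617098, about 2 kb of intron away, was high in another strain. The WSB female and male had 2.97 and 3.40, and the other 14 samples ran from 0.509 (AJ male) through a median of 0.843 to 1.90 (B6 male). No other sample reached the WSB pair, and the mean of the pair was 2.98 times that of the rest. The strain effect had a limma adjusted p of 0.00446 and WSB was higher by 1.69 ± 0.28 on the log2 scale (SE, adjusted p = 0.00379), which became 0.109 and 0.140 without the WSB female and male. The B6 pair differed from each other, at 0.857 and 1.90. CAST and PWK did not move together here, with means of 0.702 ± 0.099 and 1.48 ± 0.25 (SD, n = 2 each).

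Windows of 300 bases around the summits of these regions and of the strongest Cpe region are shown to give the reference sequence behind the peaks (GRCm38, plus strand, C57BL/6J, Cpe being on the minus strand), and capitals mark TAATTA, the homeodomain core, CAGATG or its complement CATCTG, an E-box of the NeuroD1 type, and TATAAA.
Cpe 81.5 kb, chr8:64611379-64611678: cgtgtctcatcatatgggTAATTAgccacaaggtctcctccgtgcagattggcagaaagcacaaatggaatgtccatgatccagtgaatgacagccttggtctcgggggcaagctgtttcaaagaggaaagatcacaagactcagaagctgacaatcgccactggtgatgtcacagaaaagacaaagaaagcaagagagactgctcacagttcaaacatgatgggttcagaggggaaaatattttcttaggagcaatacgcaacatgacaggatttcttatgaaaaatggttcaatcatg
Cpe 77.4 kb, chr8:64615484-64615783: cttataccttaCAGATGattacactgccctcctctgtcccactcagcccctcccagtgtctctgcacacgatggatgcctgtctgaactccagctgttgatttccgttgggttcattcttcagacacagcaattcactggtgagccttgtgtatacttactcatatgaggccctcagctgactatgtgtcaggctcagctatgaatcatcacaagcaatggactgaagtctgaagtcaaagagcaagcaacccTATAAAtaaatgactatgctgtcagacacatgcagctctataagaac
Cpe 28.0 kb, chr8:64664856-64665155: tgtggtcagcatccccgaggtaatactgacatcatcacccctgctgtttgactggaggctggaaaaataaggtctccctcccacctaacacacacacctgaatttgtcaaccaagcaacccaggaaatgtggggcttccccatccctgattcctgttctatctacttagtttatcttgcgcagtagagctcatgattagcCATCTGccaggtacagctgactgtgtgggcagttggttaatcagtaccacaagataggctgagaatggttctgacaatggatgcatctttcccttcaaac
Windows 150 bases either side of the median summit held CAGATG in 14 of the 43 regions, against 25.4% of all shared regions. TAATTA was in 5 of them (8.68% of all), TGTTTAC in 3 (8.14%), TATAAA in 3 (12.5%), GGGCGG in 7 (23.1%) and TGACGTCA in 4 (1.5%). The windows printed for 81.5 and 77.4 kb are centred on the summits of the strains called higher there, and the TAATTA of the first and the CAGATG of the second lie outside the windows counted here.

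**Figure D2:**
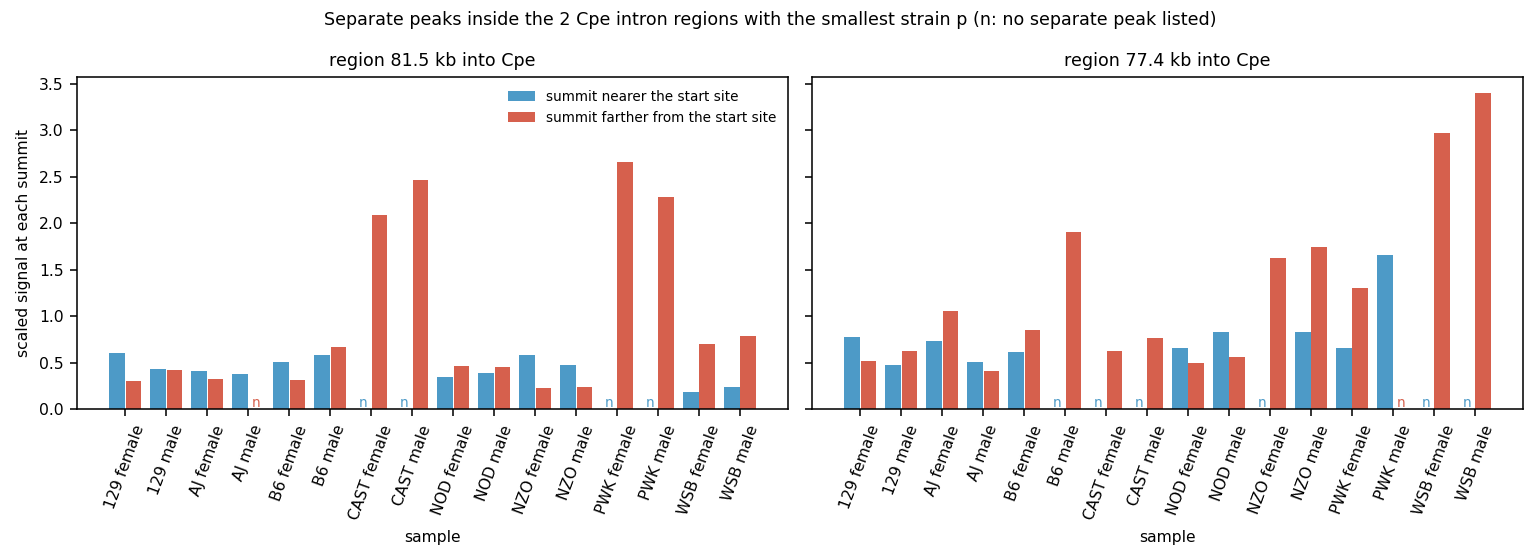
Bars give the scaled signal at the summit nearer to and farther from the Cpe start site in each of 16 samples, in the regions 81.5 kb (left) and 77.4 kb (right) into the gene, and n marks a sample that lists no separate peak there. On the left the farther summit stands above 2 only in CAST and PWK, and on the right only the WSB pair reaches 2.97 or more.

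A further pair of Cpe regions passed for strain. At 68.0 kb, chr8:64618484-64626324, the AJ pair had 3.86 and 4.15 and the NOD pair 4.16 and 4.12, while the other 12 samples lay between 4.53 and 7.5 (limma strain adjusted p = 0.0344). AJ and NOD were thus the lowest 4 samples, though neither strain was called alone. At 41.5 kb, chr8:64651366-64652599, the CAST pair had 0.170 and 0.0735 and the others ran from 0.200 through 0.281 to 0.50, at signals lower than in all but 0.413% of shared regions (limma strain adjusted p = 0.0204, CAST lower by 1.39 ± 0.28 on the log2 scale, SE, adjusted p = 0.00313). That difference had an adjusted p of 0.210 without the CAST male, 0.0689 with the deposited mean signal, 0.0866 without centring and 0.0512 with quantile normalization. The strain effect there had 0.189 with the deposited mean signal and 0.0724 with quantile normalization. The other 9 Cpe regions had adjusted p-values of strain from 0.0608 to 0.608.

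**Figure D3:**
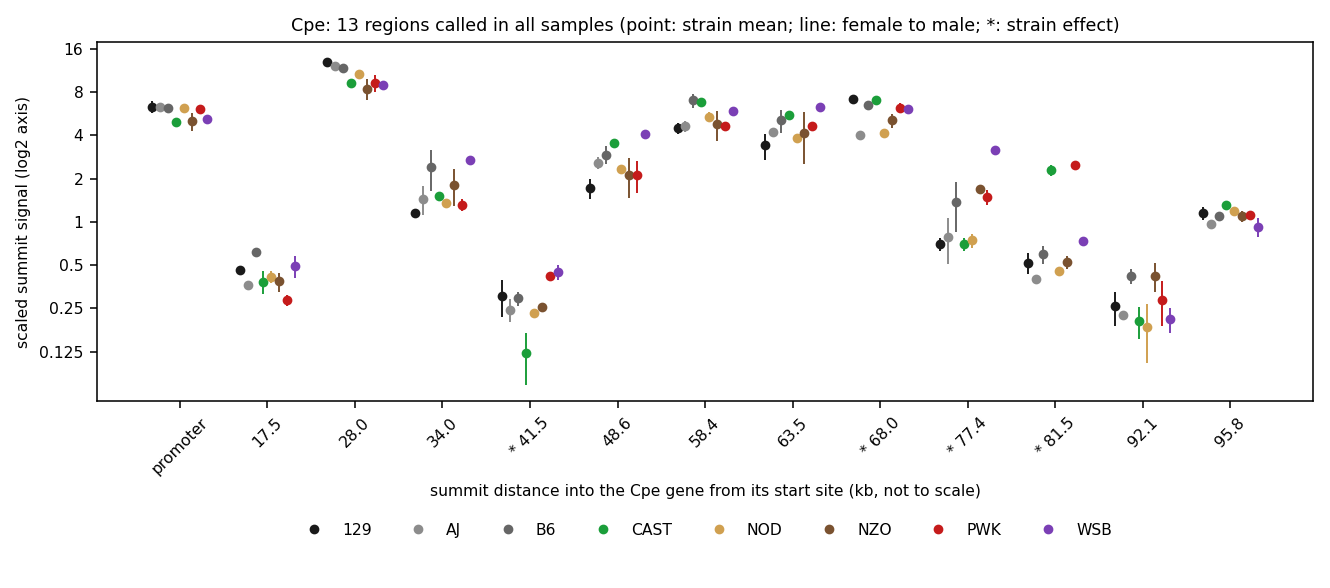
Points are strain means of the scaled signal (log2 axis) at the 13 shared Cpe regions, ordered by the distance of the summit into the gene in kb and not drawn to scale; lines join the female and the male, and stars mark the 4 regions with a strain effect. The strains lie close together at the promoter (ratio of highest to lowest mean 1.27) and far apart at 81.5 kb (6.20) and 77.4 kb (4.55).

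Chga encodes chromogranin A, the granin used as a marker of neuroendocrine cells. Its promoter region, chr12:102553615-102556399, had a modest signal, from 0.403 (PWK female) through 0.791 to 1.41 (129 female), with a limma strain adjusted p of 0.218. The PWK female and male differed there, at 0.403 and 1.00, and the strain effect passed without centring and with the PWK strain left out. A region 3.7 kb before the start, chr12:102549594-102552491, was stronger, at 1.38 to 3.55, and its strain adjusted p was 0.0521. The third, chr12:102557232-102582479, spanned 25248 bases with its summit 11.3 kb past the start, beyond the end of Chga and inside Itpk1, an inositol kinase gene, so its signal cannot be ascribed to Chga. There the NOD pair had 3.48 and 2.43 and the PWK pair 0.645 and 1.09, and the PWK pair lay below the other 14, which began at 1.21 (strain adjusted p = 0.00790). PWK fell by 1.15 ± 0.22 on the log2 scale (SE, limma adjusted p = 0.00456) and NOD was higher by 0.88 ± 0.22 (SE, adjusted p = 0.0488). With the deposited mean signal in place of the summit signal the strain effect had an adjusted p of 0.830.

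Chgb and Scg2 encode chromogranin B and secretogranin II, and each had 1 shared region, at its start site. That of Chgb, chr2:132780738-132782373, had 1.78 and 1.87 in CAST against 0.904 to 1.81 in the others, which overlapped at the 129 female. The strain effect did not pass (limma adjusted p = 0.0870), while CAST alone was higher by 0.57 ± 0.18 on the log2 scale (SE, adjusted p = 0.0408). Leaving out the CAST female or male raised the latter to at most 0.422. The Scg2 region, chr1:79438800-79440472, ranged from 0.783 (B6 male) through 1.41 to 1.85 (129 female), with a limma strain adjusted p of 0.124.

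Scg3 encodes secretogranin III, which binds other granins to the granule membrane. By its summit signal, its promoter region, chr9:75677520-75685252, was among the steadiest of the genome. Signals ran from 4.04 (NZO male) through 5.51 to 6.91 (129 male), and the strain effect had a limma adjusted p of 0.754. The ratio of strain means of 1.31 was smaller than in all but 0.816% of shared regions. With the deposited mean signal, however, the strain effect passed (limma adjusted p = 0.00787). In the intron 17.4 kb from the start, chr9:75664932-75667181, the strain effect passed (adjusted p = 0.0331). The CAST pair had 1.28 and 1.17 and the WSB pair 2.73 and 2.77, and the CAST pair overlapped the others at the PWK male (1.28). CAST was lower by 0.61 ± 0.20 on the log2 scale (SE, limma adjusted p = 0.0417), a difference of 0.17 in the other direction (adjusted p = 0.654) without centring. At 15.1 kb, chr9:75668437-75675065, the PWK pair had 2.61 and 1.75 and all others at least 2.84, with a strain adjusted p of 0.0628 and a PWK adjusted p of 0.0123 by limma that became 0.227 without the PWK male. The region farthest from the start, chr9:75637120-75647690, extended past the end of Scg3 into Lysmd2, with a limma strain adjusted p of 0.148.

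Both parts of the RE1 element, the site bound by the neuronal gene repressor REST, stood near the starts of Scg2 and Scg3, and are shown in capitals because this arrangement was rare elsewhere (30 bases each on the strand of the gene, GRCm38 chr1:79440017-79440046 and chr9:75683944-75683973).
Scg2: cgaggagCTGTCCGGTGCTGAAacggcccg
Scg3: gaacTTCAGCACCCGCGGGGCGGACAGcgc
The search took TTCAGCACC and GGACAG within 20 bases of each other on either strand, and the Scg2 pair lies on the strand opposite to the gene. It set no fixed spacing: the parts adjoin at Scg2 and lie apart at Scg3, and binding of REST was not tested. The search matched 2 of the 43 summit windows and 23 of all 40940 (0.0562%). Among RefSeq promoter windows it matched 1 of the 9 of these genes, that of Scg2, and 13 of all 32851 (0.0396%). The Scg3 match was in its summit window only. Neither the Scg2 nor the Scg3 promoter region had a strain effect past the threshold with the centred summit signal.

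Slc30a8 encodes ZnT8, the transporter that brings zinc into the insulin granule. Its promoter region, chr15:52293800-52299772, ran from 0.566 through a median of 1.05 to 2.16, a far lower level than the region 20.9 kb inside the gene. The 129 female and male had 1.84 and 2.16 and the WSB female and male 0.566 and 0.614. All other samples lay between, from 0.805 to 1.58, so that 129 was apart at the top and WSB at the bottom, with a ratio of their means of 3.39. The strain effect had a limma adjusted p of 0.0116, the smallest among the 10 promoters, and 0.0542 without the WSB female and 0.0835 without centring. Against the mean of the other strains, 129 was higher by 1.04 ± 0.21 on the log2 scale (SE, adjusted p = 0.0215) and WSB was lower by 0.95 ± 0.21 (SE, adjusted p = 0.0182). Both calls were lost with the deposited mean signal (adjusted p = 0.333 for 129 and 0.104 for WSB), without centring (0.272 and 0.320) and without either sample of the strain itself (0.115 to 0.329).

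The intron region of Slc30a8 at 20.9 kb, chr15:52315200-52317346, was among the strongest of the 43, at 2.81 (129 female) through 6.33 to 9.18 (B6 male). Here 129 had the lowest mean, 3.76 ± 1.34, and AJ and WSB the highest, 8.25 ± 0.92 and 8.08 ± 0.15 (SD, n = 2 each), but B6 female and male, at 4.85 and 9.18, differed as much, and the strain effect did not pass (limma adjusted p = 0.143). At 37.4 kb, chr15:52331548-52335599, CAST had 0.179 and 0.162 against 0.182 to 0.534 in the others (limma strain adjusted p = 0.109, CAST adjusted p = 0.0460). The median signal of this region was lower than in all but 0.882% of shared regions, and the CAST call passed in 10 of 31 alternative settings.

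Ptprn encodes IA-2, a phosphatase-like protein of the granule membrane. At its promoter region, chr1:75256600-75265427, the CAST female and male had 3.5 and 3.13, and the other 14 ran from 1.31 (AJ male) through 1.96 to 2.88 (129 female). The CAST pair lay above all others, with a ratio of means of 1.71. The strain effect passed (limma adjusted p = 0.0339) and CAST was higher by 0.81 ± 0.18 on the log2 scale (SE, adjusted p = 0.00759), with 0.0825 and 0.183 when either CAST sample was left out. With the deposited mean signal the strain effect had an adjusted p of 0.559 and CAST 0.677.

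Inside the gene, at chr1:75250425-75255999, with its summit over a coding exon 12.4 kb from the start, the order was alike. CAST had 1.75 and 1.52 and AJ 0.677 and 0.600, but the 129 female, at 1.93, was higher than either CAST sample. The limma adjusted p was 0.0478 for strain, 0.0435 for CAST and 0.0461 for AJ. None of these passed with the deposited mean signal. The strain effect passed in 13 of 32 alternative settings, and the CAST and AJ calls in 15 of 31 each. The third Ptprn region, chr1:75234309-75249671, spanned 15363 bases and held the start sites of the neighbouring gene Dnajb2, and its strain adjusted p was 0.0901 by limma.

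**Figure D4:**
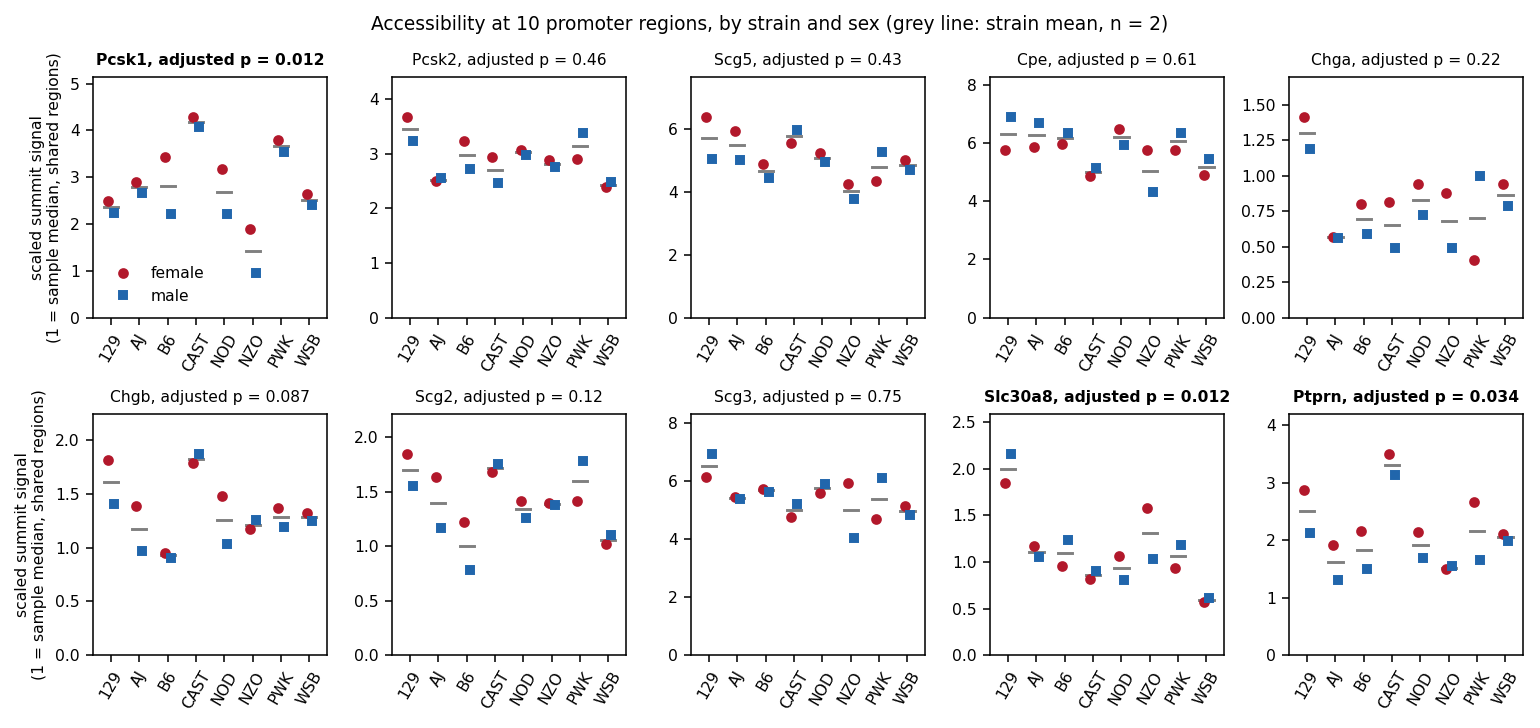
Each panel plots the scaled summit signal at the promoter region of 1 gene, by strain, with the female as a circle, the male as a square and the strain mean as a grey line, and the adjusted p of the strain effect above it. Titles in bold mark the 3 promoters past the threshold: Pcsk1 with CAST high and NZO low, Slc30a8 with 129 high and WSB low, and Ptprn with CAST high.

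The promoters of the 10 genes did not follow 1 common pattern over the samples. Over the 45 pairs of promoters, the correlation of the centred log2 signal across the 16 samples, which share strains, had a median of 0.29 and ranged from -0.37 to 0.82, the highest being that of Chgb and Ptprn. CAST had the highest strain mean at the promoter regions of Pcsk1, Scg5, Chgb, Scg2 and Ptprn. At those of Pcsk2, Cpe, Chga, Scg3 and Slc30a8 it was 129. Against the mean of the other strains, CAST was called higher only at Pcsk1, Chgb and Ptprn, and 129 only at Slc30a8. Some ranks were near ties, with means of 5.75 (CAST) and 5.70 (129) at Scg5, and 6.32 (129) and 6.28 (AJ) at Cpe. How often these strains rank highest over all promoters was not counted. The shared regions of the genome most like the Slc30a8 promoter, the one with the smallest strain p, lay at the start sites of Pou2f1, Ube2w and Cdk4, with correlations of 0.869, 0.868 and 0.864 over 16 samples.

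Of the regions present in some strains only, 2 of the 267 were listed in both samples of CAST, PWK and WSB and in no sample of a classical strain, against 478 of all 347712 regions (0.138%). They were chr2:143644400-143644925 in Pcsk2, with scaled signals of 0.188 to 0.387, and chr15:52292800-52292999, 2.6 kb before Slc30a8, with 0.145 to 0.219. A Cpe intron region, chr8:64631169-64633433, was listed in all 14 samples of the other strains, at 0.313 to 1.15, and in neither PWK sample. It was the 1 such region of the 267, against 787 of all 347712 regions. In CAST alone 2 regions were listed in both samples (0.749%, against 1.80% of all regions), in PWK 1 (0.375% against 0.974%) and in WSB 1 (0.375% against 1.01%), and none of these 4 had a signal above 0.323. A region not listed is one in which no peak passed the authors' threshold and is not shown to be closed.

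Other genes of the pathway were counted from a list of 20 symbols, of which 19 were found with 800 regions and 104 shared ones. The strain effect passed in 43 of the 104 (35.7% of all shared regions), in 9 of the 15 genes that had a shared region. CAST was higher in 6 and lower in 16, PWK higher in 8 and lower in 6, and WSB higher in 9 and lower in 2. Among all shared regions these numbers were 2793 and 5636 for CAST, 2180 and 2355 for PWK, and 1092 and 1285 for WSB. Ptprn2, the paralog of Ptprn, held 24 of the 43, among 45 tested regions, and all 4 regions of the convertase gene Pcsk5 passed. The median ratio of highest to lowest strain mean was 2.26. Of their 15 promoters 2 passed, and the share called among all promoters of the genome was not computed.

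The region of this list that passed for strain class was in Pam, the gene of the enzyme that amidates peptide hormones, at chr1:97877000-97878261. The 6 wild-derived samples had between 0.258 and 0.406, and 9 of the 10 classical samples had between 1.03 and 1.91. The NZO male, at 0.436, was the lowest of the classical samples and lay next to the wild-derived ones. Relative to the classical strains, the wild-derived ones fell by 2.07 ± 0.24 on the log2 scale (SE, limma adjusted p = 0.0121). Genes of granule exocytosis, counted beside these, had 35 shared regions of which 10 (28.6%) passed for strain, against 35.7% of all shared regions, with a median ratio of 1.87.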

How the data were processed

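Islets of 8 strains were profiled by ATAC-seq, 1 female and 1 male sample each. The authors trimmed adapters (cutadapt 2.0), aligned read pairs to mm10 (Bowtie2 2.3.4.1), removed unmapped reads (SAMtools), mitochondrial reads and duplicates (Picard 2.9.2), and called the peaks of each sample with MOSAiCS (false discovery rate 0.05). The deposited lists hold 2 signal columns, read here from their values as the signal at the summit and the mean signal of a peak, not scaled to depth, since the sources used here do not name them. A −log10 p-value per peak was also deposited and served here only for a stricter peak choice. In the strain lists, the authors kept peaks reproduced between the sexes at an irreproducible discovery rate of 0.05. Read totals per sample are not in the peak lists, so no interval from counts is given.

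Peaks were merged across samples and assigned to genes of GENCODE M21, with 3000 bases upstream. A promoter region overlaps, or lies within 1000 bases of, the start of a principal transcript. The log2(signal + 1) of each sample was centred on its median over the 40940 regions called in all 16 samples and fitted with limma 3.58.1 (R 4.3.3) on strain and sex. Fold changes on this scale understate differences at low signal. Strain class was tested on the strain means. Fits were tested on simulated data. Settings varied were the signal column, centring, quantile normalization, pseudocount, presence and merging rules, peak strictness, the sex term, and each sample or strain left out. The text names the promoter and smallest-p region of each gene and every called region, with full values for at most 3 per gene. The genes, lists and motifs were chosen with earlier results of these data known. Sequences are from GRCm38 and RefSeq.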

Additional observations from a re-analysis of the deposited data

Results flagged for a closer look

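Among 86 sets of 8 samples (43 regions, each sex apart), 5 held a sample whose gap to its neighbour was a larger share of the range of the set than Dixon's 95% critical value for 8 samples, and chance alone gives about 4.3 such sets. The NZO male was the lowest male at the Pcsk2 region 108.9 kb into the gene, with a scaled signal of 0.236 against 0.554 in the next. The PWK male was the highest male at the Scg5 region 21.3 kb into the gene, at 1.0 against 0.566. The WSB female was the highest female at the Cpe region 77.4 kb into the gene, at 2.97 against 1.63. At the Slc30a8 promoter the 129 male stood highest among males, at 2.16 against 1.24. At the Ptprn promoter the CAST male did, at 3.13 against 2.13. In each of these regions the other sample of the strain had a value on the same side of the remaining strains. The 5 strains concerned were among those called there, but the calls use the same values as the flags and are no separate evidence.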

How the results depend on the processing

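The count of regions with a strain effect was 17 of 43, where 35.7% of all shared regions were called. Without centring it was 34, with 63.2% of all called. With the stricter peaks, which left 29 regions to test, it was 10, with 35.5% of all tested regions called. The count was 11 without AJ (28.3% of all shared regions), 6 without CAST (15.5%) and 8 without WSB (25.7%). The count of calls of single strains (25) was 16 with the deposited mean signal, 56 without centring, 14 with the stricter peaks, 10 without CAST and 12 without WSB, and 38 without the NZO male and PWK male together, a setting chosen after seeing the data, in which 54.4% of all shared regions had a strain effect. Leaving out 1 sample at a time gave 7 to 27 regions with a strain effect, 11 to 45 calls of single strains, and 0 to 0 calls of strain class or sex. The lowest counts came without a CAST or WSB sample, the highest without the NZO female, where the share of all shared regions called also rose, to 60.1%. Strain class was called in 1 region without centring and in 1 without WSB, in both settings the Cpe region 81.5 kb into the gene. The 10 genes had 92 regions with the stricter peaks, against 267. The difference turned without centring for PWK at the Pcsk2 region at 111.0 kb (-0.050), CAST at the Pcsk2 region at 156.7 kb (0.082) and CAST at the Scg3 region at 17.4 kb (0.17). The causes were not tested, except that stricter peaks left fewer regions.

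Of the 17 regions, 2 (Cpe at 81.5 kb and Pcsk2 at 120.8 kb) passed for strain in every alternative that could be fitted to them. Without the sex term, the fit with no replicate block, 19 regions passed. The stricter peaks leave out weak regions, so a result at a signal far below 1 rests on few reads in a sample such as the PWK male, whose median was 32, and in such regions a missing peak may be one below the threshold.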
